A study of Mus musculus with 8 samples.

Results

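Transcripts of 10 genes of Toll-like receptor signalling were measured in hearts of wild type (WT) mice and of mice deficient in HDAC3 (KO). The genes were found by their symbol in the platform annotation: 8 receptors (Tlr1, Tlr2, Tlr3, Tlr4, Tlr7, Tlr8, Tlr9 and Tlr13), the co-receptor gene Cd14 and the adaptor gene Myd88. All 10 had a transcript cluster (the array's gene-level probe set) of their own, among 19933 genes with one. All 10 were also among the 14950 genes tested, which were those above the 25th percentile of mean level over all arrays (log2 4.50). Tlr1 was closest to that limit, with a mean below it in WT and above it in KO hearts.

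Toll-like receptors recognise molecules of microbes and of damaged cells. Tlr3, Tlr7, Tlr8, Tlr9 and Tlr13 sit in endosomes and belong to the nucleic acid receptors. Double-stranded RNA is the ligand of Tlr3, single-stranded RNA of Tlr7, CpG DNA of Tlr9 and bacterial ribosomal RNA of Tlr13. Tlr1, Tlr2 and Tlr4 act mainly at the cell surface, where Tlr2 with Tlr1 binds lipopeptides and Tlr4 binds lipopolysaccharide with the help of Cd14. Most of the receptors signal through the adaptor Myd88, while Tlr3 uses another adaptor, Ticam1 (TRIF). In the heart, resident macrophages carry many of these receptors, and other heart cells carry some of them.

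The groups were 4 WT and 4 KO male C57BL/6 mice aged 6 weeks, all on normal chow, with 1 Affymetrix Mouse Gene 1.0 ST array per heart. The design text names the knockouts MCH3-KO, and the labels do not state in which cells the gene was deleted. The deposited values are processed intensities, and every level and difference here is on their log2 scale. Each group's hearts carry numbers as separate biological replicates in the labels. Median intensities of the arrays lay between 54.1 and 56.5. Hdac3 itself had a level of 10.10 ± 0.08 in WT and 8.57 ± 0.05 in KO hearts (SD, n = 4), with no overlap, so every array matched its label. In limma, with Benjamini-Hochberg adjustment over all genes tested and a threshold of 0.05, 10.8% of genes were higher and 13.9% lower in KO hearts, and the median difference of all genes was -0.01. The number of arrays limits the precision of every value.

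RefSeq promoter windows (build GRCm38.p6) were at hand for 7 of the 10 genes: Tlr1, Tlr2, Tlr3, Tlr8, Tlr9, Tlr13 and Myd88. The 150 bases before the annotated start are shown for all 7, of which Tlr8, Tlr13, Tlr9, Tlr2 and Tlr1 rose in KO hearts and Tlr3 and Myd88 did not pass the test. Of the 2 windows of Tlr1, the upstream one is shown. Capitals mark matches, on either strand, to GAGGAA (the core bound by PU.1, a transcription factor of macrophages), GGAAGT (an ETS core), GAAA followed by GAAA after any 2 bases (a tandem IRF motif), TGANTCA (AP-1) or GGG followed by TTTCC after any 2 bases (NF-kB). In Tlr1 the first and second of these motifs overlap.
Tlr8, chrX:167264330-167264479, minus strand: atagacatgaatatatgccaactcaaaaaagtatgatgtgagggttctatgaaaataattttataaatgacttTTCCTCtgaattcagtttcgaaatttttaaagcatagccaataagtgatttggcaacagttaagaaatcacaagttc
Tlr13, chrX:106143125-106143274, plus strand: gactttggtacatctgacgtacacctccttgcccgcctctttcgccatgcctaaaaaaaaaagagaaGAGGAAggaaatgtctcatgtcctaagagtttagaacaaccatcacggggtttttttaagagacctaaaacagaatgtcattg
Tlr9, chr9:106222448-106222597, plus strand: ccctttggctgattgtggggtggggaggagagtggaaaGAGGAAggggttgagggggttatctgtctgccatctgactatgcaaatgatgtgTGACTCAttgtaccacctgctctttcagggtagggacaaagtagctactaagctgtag
Tlr2, chr3:83841609-83841758, minus strand: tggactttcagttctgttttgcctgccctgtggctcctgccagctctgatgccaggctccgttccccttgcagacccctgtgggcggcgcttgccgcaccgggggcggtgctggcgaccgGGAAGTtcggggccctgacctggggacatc
Tlr1, chr5:64933559-64933708, minus strand: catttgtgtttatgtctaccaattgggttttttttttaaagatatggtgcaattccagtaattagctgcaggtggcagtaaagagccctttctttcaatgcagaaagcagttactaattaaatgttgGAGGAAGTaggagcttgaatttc
Tlr3, chr8:45410381-45410530, minus strand: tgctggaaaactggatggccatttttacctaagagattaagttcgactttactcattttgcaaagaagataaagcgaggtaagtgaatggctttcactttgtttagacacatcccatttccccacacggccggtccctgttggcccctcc
Myd88, chr9:119340019-119340168, minus strand: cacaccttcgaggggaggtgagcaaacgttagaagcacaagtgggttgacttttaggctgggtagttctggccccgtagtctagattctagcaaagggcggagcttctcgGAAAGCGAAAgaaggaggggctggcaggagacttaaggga

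Over the 250 bases before the start, GAGGAA was present in 1 window each of Tlr1, Tlr8, Tlr9 and Tlr13, which is 4 of the 8 windows of these genes (the other window of Tlr1 held none of the motifs). The Tlr2 window, also of a gene that rose, lacked GAGGAA. It was present in 23.3% of all 32851 RefSeq windows of that length. GGAAGT was found in Tlr1 and Tlr2, against 19.7% of all windows. The tandem IRF motif was found in Myd88 alone among these genes (2.98% of all windows), AP-1 in Tlr9 alone (6.75%) and NF-kB in Tlr3 alone (1.41%), the last further upstream than the stretch shown. These matches describe letters in a window and do not show binding.

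Of the 10 genes, 7 rose in KO hearts and 0 fell, against 10.8% and 13.9% of all genes tested. At an unadjusted p under 0.05 in limma the number that were lower was also 0. Tlr7, Tlr8 and Tlr13 each rose by more than 2-fold, as did 0.836% of all genes tested. Smaller rises were seen for Cd14, Tlr2, Tlr9 and Tlr1. Among the 7 genes that rose, Tlr1 entered the test only through its KO level. Tlr3, Tlr4 and Myd88 did not pass the test. Every KO heart lay above every WT heart for 6 of the 10 genes (Tlr2, Tlr7, Tlr8, Tlr9, Tlr13 and Cd14), as was the case for 11.7% of all genes tested. The median difference over the 10 genes was 0.52.

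**Figure D1:**
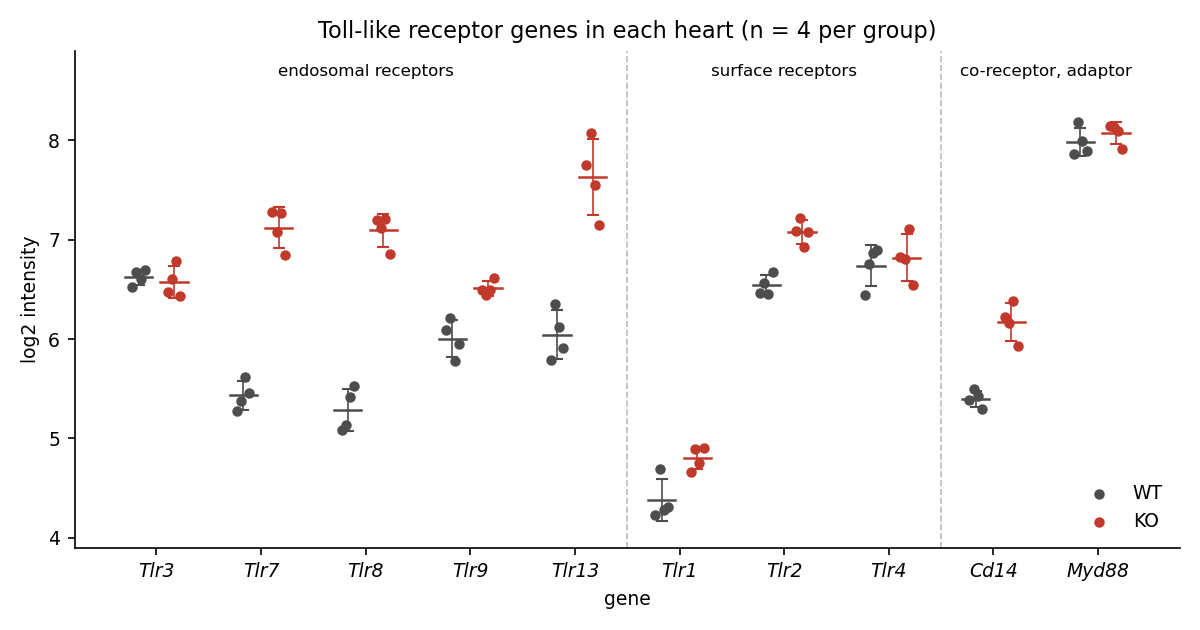
Log2 intensity of each gene (horizontal axis) in each heart, WT in grey and KO in red, with the mean and SD of 4 hearts as bars. Tlr7, Tlr8 and Tlr13 show wide gaps between the groups, while Tlr3, Tlr4 and Myd88 overlap; levels of different genes come from different probes and are not comparable with each other.

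Among the endosomal receptors Tlr8 changed most. Its levels were 5.08, 5.13, 5.41 and 5.52 in WT replicates 1 to 4 and 7.20, 7.12, 7.20 and 6.85 in KO replicates 1 to 4. All KO hearts lay well above all WT hearts, and KO replicate 4 was the lowest of them. The rise was 1.80 (SE 0.11, 95% interval 1.56 to 2.05), or 3.49-fold, with an adjusted p of 3.88e-06 in limma, the 10th largest rise of all genes tested. Tlr7, its neighbour on the X chromosome with no protein-coding gene between them in the RefSeq table, had levels of 5.28, 5.38, 5.62 and 5.46 in WT and 7.28, 7.08, 7.27 and 6.85 in KO hearts. Its groups did not overlap either, with KO replicate 4 again the lowest KO heart. Tlr7 rose by 1.69 (SE 0.10, 95% interval 1.45 to 1.92), or 3.22-fold (adjusted p = 3.88e-06 in limma).

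Tlr13, which binds bacterial ribosomal RNA, also rose about 3-fold, with more spread among hearts. It had levels of 5.79, 6.36, 6.12 and 5.91 in WT and 7.75, 8.07, 7.55 and 7.15 in KO hearts. The groups did not overlap, and KO replicate 4 was nearest to the WT range. The rise was 1.59 (SE 0.18, 95% interval 1.19 to 1.99), or 3.01-fold (adjusted p = 0.00015 in limma). It ranked 17th among all rises, and Tlr7 ranked 14th.

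Tlr9, the receptor for CpG DNA, had levels of 6.09, 6.21, 5.78 and 5.95 in WT and 6.49, 6.44, 6.49 and 6.62 in KO hearts. The groups did not overlap, the gap between them was narrow, and KO replicate 4 was here the highest heart. Tlr9 rose by 0.51 (SE 0.09), or 1.42-fold (adjusted p = 0.00199 in limma). Tlr3, the receptor for double-stranded RNA, had levels of 6.52, 6.67, 6.60 and 6.69 in WT and 6.47, 6.61, 6.79 and 6.43 in KO hearts. KO hearts held both the highest and the lowest value, so the groups overlapped fully. The Tlr3 difference was -0.05 (SE 0.08, 95% interval -0.23 to 0.13, adjusted p = 0.73 in limma), and it was 0.00 without KO replicate 4.

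Of the surface receptors, Tlr2, which binds lipopeptides, had levels of 6.47, 6.57, 6.45 and 6.67 in WT and 7.09, 7.22, 6.93 and 7.08 in KO hearts. All KO hearts were above all WT hearts. Tlr2 rose by 0.54 (SE 0.07), or 1.45-fold (adjusted p = 0.000477 in limma). Its partner Tlr1 was dim, with levels of 4.23, 4.69, 4.28 and 4.31 in WT and 4.67, 4.89, 4.76 and 4.91 in KO hearts. WT replicate 2 stood above the other WT hearts and just above KO replicate 1, so the groups overlapped. Tlr1 rose by 0.43 (SE 0.10), or 1.34-fold (adjusted p = 0.0116 in limma), and since its WT mean of 4.38 was below the limit for testing, it entered the test through its KO level.

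Tlr4, the lipopolysaccharide receptor, had levels of 6.44, 6.76, 6.87 and 6.89 in WT and 6.82, 6.80, 7.11 and 6.54 in KO hearts. The values of the groups were interleaved, with WT replicate 1 lowest and KO replicate 3 highest. The difference was 0.08 (SE 0.13, 95% interval -0.20 to 0.36, adjusted p = 0.714 in limma). It turned to -0.02 without WT replicate 1 and to -0.02 without KO replicate 3.

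Cd14, which hands lipopolysaccharide to Tlr4, had levels of 5.38, 5.49, 5.43 and 5.30 in WT and 6.22, 6.17, 6.38 and 5.93 in KO hearts. The groups did not overlap, and KO replicate 4 was the lowest KO heart. Cd14 rose by 0.77 (SE 0.09), or 1.71-fold (adjusted p = 0.00016 in limma). Myd88, the adaptor that joins most of the receptors to their kinases, had levels of 7.86, 8.18, 7.99 and 7.90 in WT and 8.14, 8.13, 8.10 and 7.91 in KO hearts. WT replicate 2 was the highest heart of all. The Myd88 difference was 0.09 (SE 0.08, 95% interval -0.09 to 0.27, adjusted p = 0.501 in limma).

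Endosomal and surface receptors were then set side by side. The endosomal receptors rose in 4 of 5 cases with a median difference of 1.59, and the surface receptors in 2 of 3 cases with a median of 0.43. That median is the value of Tlr1, which was tested only through its KO level; it was 0.31 with a stricter limit on dim genes, which drops Tlr1, and 0.25 with an offset of 16 added before log2. The mean over the 5 endosomal receptors, relative to the WT mean, was 1.16, 1.18, 1.18 and 0.90 in KO replicates 1 to 4 and -0.13, 0.07, 0.03 and 0.03 in WT replicates 1 to 4. The mean over the 3 surface receptors was 0.31, 0.42, 0.38 and 0.29 in KO and -0.17, 0.12, -0.02 and 0.07 in WT hearts. In both cases the KO hearts lay above the WT hearts. Location did not sort the receptors fully, since the endosomal Tlr3 did not pass and the endosomal Tlr9 (0.51) had a smaller estimated rise than the surface receptor Tlr2 (0.54), a gap within their errors.

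All 28 pairs of receptors were compared by the ratio of their levels within each heart, with an exact two-sided permutation test over the 8 arrays and Benjamini-Hochberg adjustment over the pairs. The smallest p this design allows is 0.0286, which became 0.0471 after adjustment, and 17 pairs reached it. Since these pairs share 1 p, their adjusted value depends on how many reached it, and they pass or fail together. Each of Tlr7, Tlr8 and Tlr13 changed more than each of the other receptors, in 15 of 15 pairs, by 1.05 to 1.85. These 3 receptors were grouped after their values were seen. The pairs share receptors and the same 8 arrays, so they are not separate pieces of support. Some of them involve Tlr1, which entered the limma test only through its KO level. The other pairs that passed were Tlr2 over Tlr3 (0.59, SE 0.13) and Tlr9 over Tlr3 (0.55, SE 0.15).

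None of the 3 pairs among Tlr7, Tlr8 and Tlr13 passed in the exact test. Tlr8 exceeded Tlr7 by 0.12 (SE 0.08, adjusted p = 0.255, exact), Tlr8 exceeded Tlr13 by 0.22 (SE 0.23, adjusted p = 0.467, exact) and Tlr7 exceeded Tlr13 by 0.10 (SE 0.21, adjusted p = 0.563, exact). Tlr2 and Tlr9, a surface and an endosomal receptor, differed in their change by 0.03 (SE 0.12, adjusted p = 0.771, exact). Of the 15 pairs of an endosomal with a surface receptor, 10 passed. In 9 of these 10 the endosomal receptor changed more, and in 1 the surface receptor. Those that passed include pairs with the dim Tlr1.

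**Figure D2:**
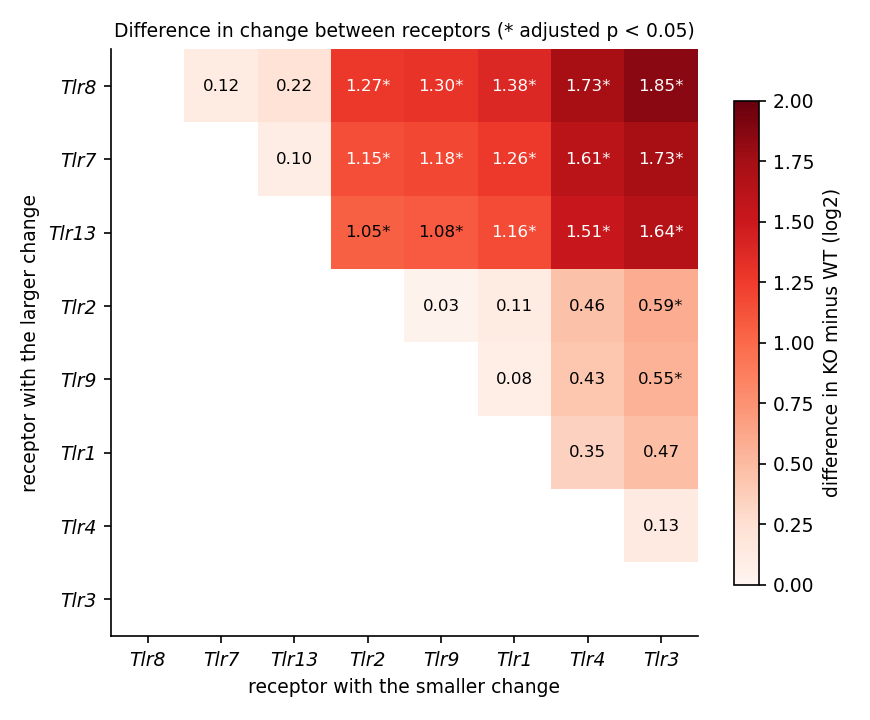
Difference between the changes (KO minus WT, log2) of each pair of receptors, with the receptor of larger change in the row and that of smaller change in the column; an asterisk marks an adjusted p under 0.05 in the exact permutation test. The rows of Tlr8, Tlr7 and Tlr13 hold 15 marked cells, from 1.05 to 1.85, and none where they meet each other.

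Markers of macrophages also rose in KO hearts. Of 20 macrophage markers 20 rose, against 10.8% of all genes, with a median of 1.32. Their summed intensity was 4850 to 5450 in WT and 10962 to 14084 in KO hearts. Cd68, a lysosomal gene, rose by 1.46 (SE 0.08), Lyz2, which encodes lysozyme, by 1.41 (SE 0.07), Tyrobp, a signalling partner of myeloid receptors, by 1.39 (SE 0.06) and the growth factor receptor gene Csf1r by 1.31 (SE 0.07). Aif1 (4.32 in WT, 4.98 in KO hearts) entered the test only through its KO level. The weakest call was that of Cx3cr1 (0.40, adjusted p = 0.0485 in limma), named after its values were seen. Without WT replicate 3 or 4 or without any 1 of the KO hearts 19 markers were called. The Cx3cr1 call was also lost with median centring of the arrays, without the limit on dim genes and with the replicate number as a block. In bulk hearts more cells of a type and more RNA per cell cannot be told apart, and the part of macrophage number in the receptor changes was not tested.

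Markers of other cells changed less. In limma 0 of 5 neutrophil markers passed (0 also at an unadjusted p under 0.05), and the summed intensities of all 8 with a cluster, 3 of them below the limit for testing, were 169 to 182 in WT and 179 to 187 in KO hearts. Of 4 lymphocyte markers 0 passed (0 at an unadjusted p under 0.05), and the sums of all 9 with a cluster, 5 of them below that limit, were 224 to 271 in WT and 228 to 249 in KO hearts. Dendritic cell markers rose in 2 of 6 cases (Cd209a, 0.49, and Itgax, 0.32), which is 33.3%, against 10.8% of all genes. Without WT replicate 3, WT replicate 4 or KO replicate 1 the number was 1. Itgax (4.35 in WT, 4.67 in KO hearts) entered the test only through its KO level. The sums of all 8 dendritic cell markers, 2 of them below the limit, were 309 to 323 in WT and 337 to 369 in KO hearts.

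Endothelial markers passed in 0 of 10 cases in limma (0 at an unadjusted p under 0.05), and 1 (Emcn, named after its values were seen) passed without WT replicate 2. Their sums were 8626 to 10439 in WT and 9000 to 9380 in KO hearts. Fibroblast markers rose in 3 of 10 cases (Lum, Postn and Col1a2), against 10.8% of all genes. Without WT replicate 2 or KO replicate 4 the number was 5. It was also 5 with quantile normalisation, the stricter limit on dim genes or trend and robust variances, and 6 with array weights. Without WT replicate 3, 1 fell. The Col1a2 call was lost without any 1 of WT replicates 1, 3 and 4 and KO replicates 1, 2 and 3. It was also lost with median centring of the arrays and without the limit on dim genes. At an unadjusted p under 0.05 in limma 6 fibroblast markers rose, and the share of all genes at that limit was not counted. The sums of all 10 fibroblast markers were 8998 to 9347 in WT and 9406 to 10434 in KO hearts, without overlap. Cardiomyocyte markers fell in 3 of 10 cases (Ryr2, Myl2 and Nkx2-5), against 13.9% of all genes. Without WT replicate 1, KO replicate 1 or KO replicate 2, 1 fell. With trend and robust variances 6 fell and 1 rose. The labelled tissue showed its defining genes in both groups, at sums of 71695 to 72562 in WT and 68223 to 69300 in KO hearts. No marker was listed at 0, but neither was any gene, since the lowest intensity on any array was 3.57 (WT replicate 1).

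Set against the mean of the 20 macrophage markers of the same heart, the receptors fell on both sides. Relative to that mean Tlr8 differed by 0.59 between KO and WT hearts, Tlr7 by 0.47 and Tlr13 by 0.38. The groups stayed apart for Tlr8 and Tlr7 and overlapped for Tlr13. On the same scale Cd14 differed by -0.44, Tlr2 by -0.67, Tlr9 by -0.71 and Tlr1 by -0.79. Myd88 (-1.13), Tlr4 (-1.13) and Tlr3 (-1.26), whose own levels did not change past the threshold, lay lowest. The marker mean itself rose by 1.21, so a gene with no change lies lower by about that amount on this scale. The groups stayed apart for all of these lower genes, also for Myd88, Tlr4 and Tlr3, so that separation is no trait of single genes. For how many of all genes the groups stay apart on this scale was not counted. These ratios are descriptions of the arrays, with no test.

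**Figure D3:**
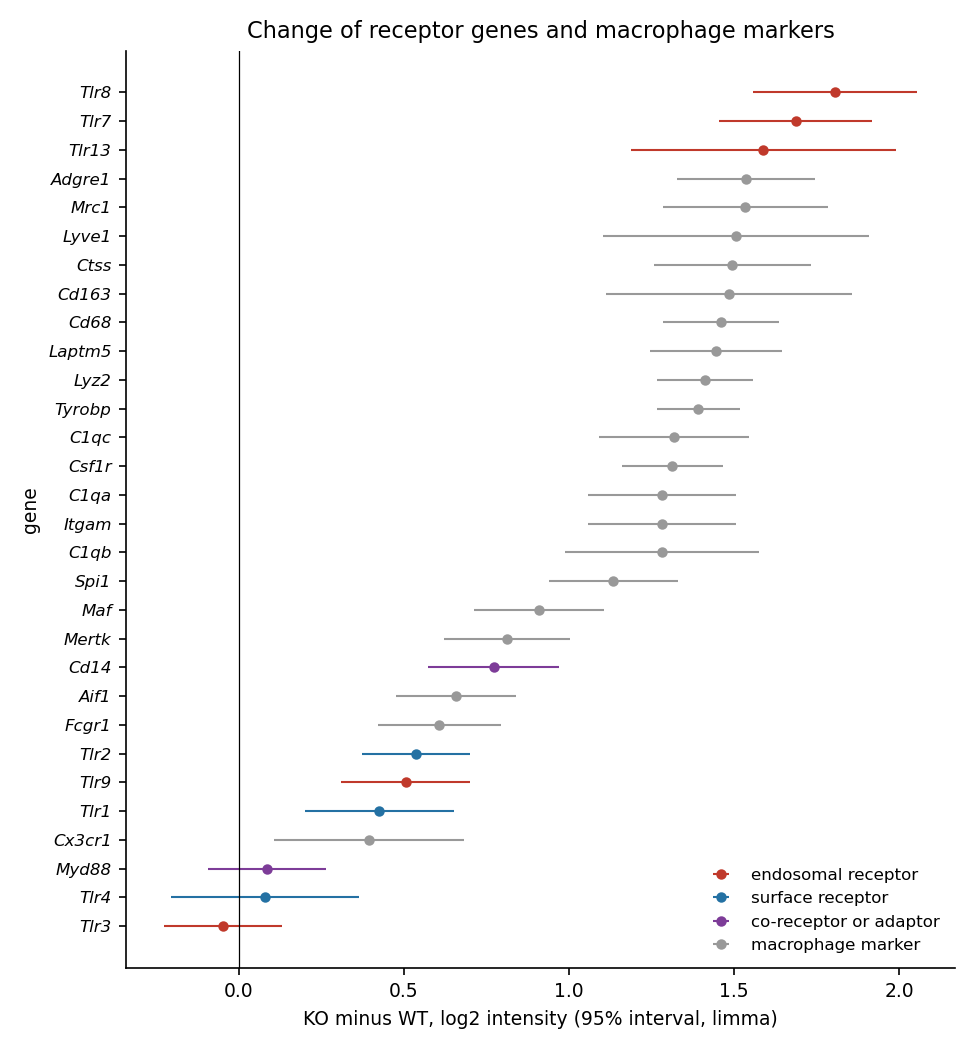
KO minus WT difference on the log2 scale with its 95% interval from limma (n = 4 hearts per group) for the 10 genes, coloured by class, and the 20 macrophage markers in grey. Tlr8, Tlr7 and Tlr13 have the largest point estimates, and Tlr3, Tlr4 and Myd88 have intervals that include 0.

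KO replicate 4 was the lowest KO heart in the endosomal mean (0.90, against 1.16 to 1.18 in the others) and in the mean of the macrophage markers, which was 1.29, 1.29, 1.24 and 1.04 in KO replicates 1 to 4. Without it the rises were larger for Tlr7 (1.78), Tlr8 (1.89) and Tlr13 (1.75), and the same 7 of the 10 genes passed.

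**Figure D4:**
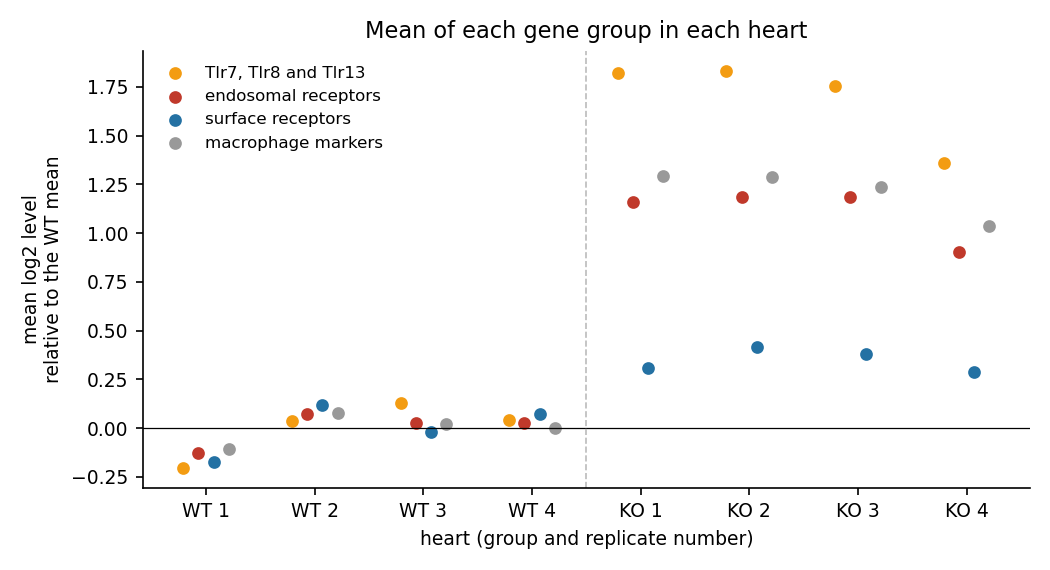
Mean log2 level, relative to the WT mean, of Tlr7, Tlr8 and Tlr13, of the 5 endosomal and 3 surface receptors and of the 20 macrophage markers in each heart, named by group and replicate number. In KO hearts the macrophage markers lie between 1.04 and 1.29 and the surface receptors between 0.29 and 0.42, and KO replicate 4 has the lowest value of each set.

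Genes that act around the receptors were examined in 7 lists of 118 genes, of which 93 could be tested. In KO hearts 40 of them rose (43.0%, against 10.8% of all genes) and 8 fell (8.60%, against 13.9%), with a median difference of 0.16. With single hearts left out the rises numbered 30 to 44 and the falls 6 to 8. Macrophage markers, with their median of 1.32, were higher in the same hearts, and their part in these lists was not tested. Of the 11 list genes without a cluster of their own, Tlr5, Tlr11, Irak4, Traf3 and Nfkb1 were among those not analysed here. Tlr6, the other partner of Tlr2, lay below the limit for testing, with 4.31 ± 0.16 in WT and 4.68 ± 0.14 in KO hearts (SD, n = 4). Tested without that limit it differed by 0.37 (adjusted p = 0.0169 in limma), and Tlr12 by 0.09 (adjusted p = 0.465).

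Chaperones and helpers of the receptors rose in 8 of 16 cases (50%, against 10.8% of all genes), and 1 fell (6.25%, against 13.9%). Their median was 0.28. Unc93b1, which escorts the nucleic acid receptors from the endoplasmic reticulum to endosomes, had levels of 7.10, 7.44, 7.21 and 7.22 in WT and 8.20, 8.26, 8.16 and 8.08 in KO hearts. Without overlap, it rose by 0.94 (SE 0.08, adjusted p = 1.73e-05 in limma). Pld4, an endolysosomal exonuclease that degrades single-stranded nucleic acids, rose by 1.31 (SE 0.10), while its relative Pld3 differed by 0.03 (SE 0.05, adjusted p = 0.663 in limma). Ly86 (MD-1) rose by 1.49 (SE 0.14), its partner Cd180, a receptor related to Tlr4, by 1.00 (SE 0.21) and the vesicle traffic gene Rab7b by 0.90 (SE 0.10).

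The chaperone gene Hsp90b1 (gp96), which folds most of the receptors, rose by 0.39 and the endosomal protease gene Lgmn by 0.56, whereas Cnpy3, the partner of Hsp90b1 in that task, differed by 0.16 (adjusted p = 0.146 in limma). Ly96 (MD-2), the part of the Tlr4 complex that holds lipopolysaccharide, rose by 0.33 (adjusted p = 0.0494 in limma, range 0.0213 to 0.126 over the alternatives), a call lost in 9 of 17 alternatives, among them those without any 1 of WT replicates 1, 3 and 4 and KO replicates 1, 3 and 4. The gene that fell was Rnf170, a ubiquitin ligase gene (-0.34, SE 0.08). Pld3, Cd180, Hsp90b1, Lgmn, Cnpy3, Ly96 and Rnf170 were named after their values were seen.

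Among adaptors and proximal kinases 7 of 16 rose (43.75%, against 10.8% of all genes) and 3 fell (18.75%, against 13.9%), with a median of 0.12. The tyrosine kinase genes Btk and Syk rose by 0.71 (SE 0.09) and 0.40 (SE 0.06), and the B cell adaptor gene Pik3ap1 by 0.57 (SE 0.09). Map3k7 (-0.31, SE 0.07), which encodes the TAK1 kinase, and the partner genes Tab3 (-0.44, SE 0.08) and Tab1 (-0.47, SE 0.09) fell. Tab2, another TAK1 partner gene, differed by 0.08 (adjusted p = 0.402 in limma). Ticam1, the adaptor of Tlr3, differed by 0.07 (adjusted p = 0.468 in limma), Ticam2 rose by 0.37 and Irak2 by 0.29, and Irak1 (-0.09, adjusted p = 0.216) and Traf6 (-0.04, adjusted p = 0.614) did not pass in limma. Tab1, Tab2, Map3k7, Ticam1, Ticam2, Irak2, Irak1 and Traf6 were named after their values were seen.

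In the NF-kB, MAP kinase and IRF branch 7 of 20 rose (35%, against 10.8% of all genes) and 2 fell (10%, against 13.9%). The median was 0.10. Irf5, a transcription factor gene of the Myd88 pathway, rose by 0.80 (SE 0.07, adjusted p = 2.69e-05 in limma), Irf8 by 0.48 (SE 0.06), the kinase gene Map3k8 by 0.53 (SE 0.08) and Mapkapk2 by 0.32 (SE 0.05). The stress kinase genes Mapk8 (-0.44) and Map2k6 (-0.50) fell, and Irf3, a factor gene of the Ticam1 branch, differed by -0.08 (adjusted p = 0.434 in limma). Mapk8, Map2k6 and Irf3 were named after their values were seen.

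Genes that restrain the pathway rose in 6 of 16 cases (37.5%, against 10.8% of all genes), and 2 fell (12.5%, against 13.9%). Their median was 0.11. Lilrb4a, an inhibitory receptor gene of myeloid cells, rose by 1.32 (SE 0.14), the lipid phosphatase gene Inpp5d (SHIP1) by 1.05 (SE 0.12), the phosphatase gene Ptpn6 (SHP-1) by 0.62 (SE 0.05) and Nlrc3 by 0.37 (SE 0.07). The falls, Tollip (-0.20) and Nfkbib (-0.19), named after their values were seen, numbered 1 without any 1 of WT replicates 1 and 2 and KO replicates 1 and 2, and 0 without KO replicate 3.

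Products that the pathway can induce rose in 7 of 14 cases in limma (50%, against 10.8% of all genes). The number that fell was 0, against 13.9% of all genes (1 at an unadjusted p under 0.05), and the median was 0.19. The chemokine genes Ccl3 and Ccl2 rose by 0.98 (SE 0.13) and 0.68 (SE 0.09), the cyclooxygenase gene Ptgs2 by 0.68 (SE 0.10) and the adhesion gene Vcam1 by 0.39 (SE 0.10). The Vcam1 call was lost without KO replicate 1 or KO replicate 2 (adjusted p 0.00355 to 0.0564 over the alternatives in limma). The number of rises was 4 without WT replicate 1, and 3 without KO replicate 1 or KO replicate 2, and 1 gene fell without WT replicate 2 or with array weights. The cytokine gene Tnf differed by 0.22 (adjusted p = 0.0254 in limma, range 0.0106 to 0.0702 over the alternatives), with the call lost without any 1 of WT replicates 1 and 3 and KO replicates 1, 2 and 4, and Il1b by 0.07 (adjusted p = 0.638 in limma). Il6, Il10, Il12b, Cxcl2, Ifnb1 and Saa3 lay below the limit for testing. Tnf and Il1b were named after their values were seen.

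Other innate sensors and their adaptors rose in 5 of 11 cases in limma (45.5%, against 10.8% of all genes). The number that fell was 0, against 13.9% of all genes (0 at an unadjusted p under 0.05), and the median was 0.30. The inflammasome genes Casp1 and Pycard rose by 0.60 (SE 0.05) and 0.82 (SE 0.08), the nucleic acid sensor gene Zbp1 by 0.45 (SE 0.10) and Mavs by 0.19 (SE 0.05). The Mavs call was lost without any 1 of WT replicates 3 and 4 and KO replicates 1, 2 and 3 (adjusted p 0.00386 to 0.0905 over the alternatives in limma). Median centring of the arrays also removed it. The number of rises was 3 without WT replicate 3, WT replicate 4, KO replicate 1, KO replicate 2 or KO replicate 3 or with the stricter limit on dim genes, and 8 without WT replicate 2 or with array weights.

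**Figure D5:**
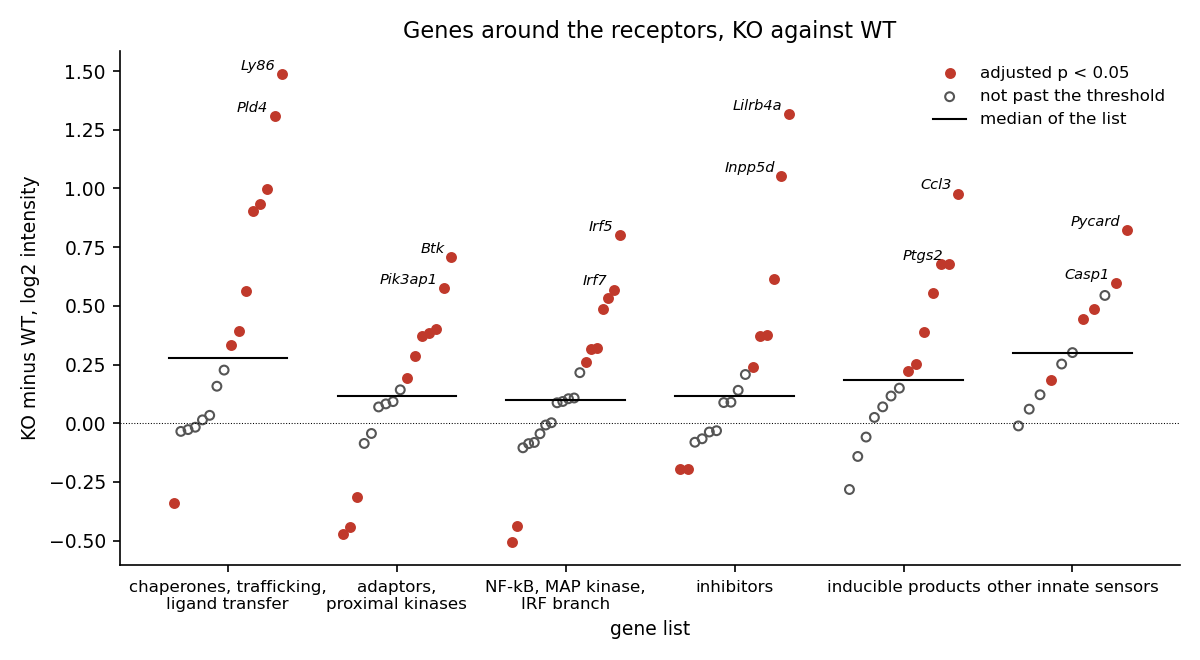
KO minus WT difference on the log2 scale of each tested gene in 6 lists of genes around the receptors, ordered within each list; filled red points passed the adjusted threshold in limma, open points did not, and the line is the median of the list. The largest rises are Ly86 and Pld4 among chaperones and helpers and Lilrb4a among inhibitors, and the list medians lie between 0.10 and 0.30.

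The genes whose levels over the 8 hearts were most like those of Tlr8 by Pearson's r, other than the 10 genes themselves, were Gabarapl1 (r = 0.997, difference 0.89), Iqgap2 (0.997, 1.01), F13a1 (0.996, 1.66), Pdlim5 (0.996, 0.61) and Ms4a6d (0.995, 1.99). For Tlr4 they were Dr1 (r = 0.977, difference 0.03), Vamp4 (0.966, 0.08), Zfp141 (0.962, 0.01), Prex2 (0.942, 0.06) and Atxn3 (0.933, 0.03). All 5 genes nearest to Tlr8 differed between the groups past the threshold and none of those nearest to Tlr4 did. These correlations share the 8 arrays and the group difference and are given as a description.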

How the data were processed

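Whole-heart RNA of 8 mice was read on 1 array each. The authors deposited processed intensities on a linear scale, 1 per transcript cluster and array. RMA and Partek were used, per the submitters' processing notes, with roles and versions not given in the sources used here; further scaling, the genome build and scan batches are likewise unknown. Values were log2 transformed with no further scaling. Of 27541 clusters, 21631 carried 1 gene symbol in the platform annotation; the brightest cluster per gene was kept (each of the 10 genes had 1 cluster). Genes whose mean level lay under the 25th percentile were left out. Groups were compared with limma 3.58.1 (lmFit, eBayes, two-sided) in R 4.3.3, adjusted over 14950 genes, and pairs of receptors by exact permutation tests (scipy 1.17.1). In data simulated for this comparison over 14950 genes, 91% of 100 1.5-fold and 100% of 100 2-fold changes were called, with 15 false calls. The simulated noise was independent between genes and no other genes changed, whereas 24.6% of genes were called in the hearts. These figures are therefore no error rate of the real comparison.

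The 10 genes and the lists were chosen with earlier results of these data known. Named genes were Hdac3, the 10 genes, up to 4 changed genes with the smallest p per list (at most 2 where none changed) and the 5 genes nearest to Tlr8 and to Tlr4. Replicate numbers did not pair the hearts (correlations of deviations -0.04 to 0.08). Tlr4, Tlr7 and Cd14 sequences were not used here.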

Additional observations from a re-analysis of the deposited data

Results flagged for a closer look

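In groups of 4 hearts, a heart was singled out where its gap to the nearest other heart took up more of the group's range than Dixon's 95% limit; chance gives about 1 in 20 groups, and 10 of 162 groups (6.17%) met it. Among the receptors, Tlr1 was 4.69 in WT replicate 2, against 4.23 to 4.31 in the other WT hearts. Without that heart the Tlr1 difference was 0.53. The mean of the endosomal receptors was 0.90 in KO replicate 4, below the other KO hearts.

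KO replicate 4 was also lowest, apart from the other KO hearts, for Hdac3 (8.50), Inpp5d (7.77) and Postn (9.67). WT replicate 1 was lowest, apart from the other WT hearts, for Rab7b (5.70), Inpp5d (6.60) and Lum (8.59). In WT replicate 3 Btk was lowest (4.50) and Cd209a highest (6.15).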

How the results depend on the processing

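The 7 rises among the 10 genes numbered 7 in every alternative run except the stricter limit on dim genes, where Tlr1 and Cd14 were not tested and 5 remained called. The replicate number as a block (replicate block) gave 7 rises among the 10 genes and 1466 higher and 1916 lower genes in all, against 1612 and 2071; the hearts share only a number. Signs turned only for differences past no threshold: Tlr3 was 0.00 (0.00087) without KO replicate 4, with a range of -0.12 to 0.00087 over single hearts left out, and Tlr4 was -0.020 without WT replicate 1 and -0.018 without KO replicate 3, with a range of -0.020 to 0.17. The median difference of the endosomal receptors was 1.73 with array weights and 1.39 with an offset of 16 before log2, which shrinks dim genes by construction, and 1.44 to 1.75 with single hearts left out. That of the surface receptors was 0.31 with the stricter limit, which drops Tlr1, 0.25 with the offset, and 0.38 to 0.53 with single hearts left out. The gap between these medians was 1.28 with the stricter limit, 1.29 with array weights (the cause was not tested) and 1.05 to 1.36 with single hearts left out. Receptor pairs past the threshold numbered 17 under quantile normalisation, the mean of clusters and the offset; with a heart left out the exact test cannot reach the threshold. Genes of the lists kept their call in all alternatives except 36 of 158. No detection calls were at hand, so dim genes such as Tlr1 are the least certain.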
